A study of Mus musculus with 9 samples.

Results

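The 10 genes described here encode core components of the basement membrane: the collagen IV chains Col4a1 and Col4a2, the laminin chains Lama1, Lama5, Lamb1 and Lamc1, the nidogens Nid1 and Nid2, the heparan sulfate proteoglycan perlecan (Hspg2), and the collagen-binding protein Sparc. They were chosen by name, with earlier results of these data known. They make up 10 of the 24411 gene rows of the deposited expression tables. The RNA came from EB5, a line of mouse embryonic stem cells, and was sequenced as 9 libraries, 3 for each of 3 genotypes. The Parental cells were EB5 without further editing, the Zfp352-KO cells had Zfp352 deleted with CRISPR-Cas9, and the Zfp352/Zfp353-DKO cells had both Zfp352 and Zfp353 deleted. All 3 genotypes share the EB5 background, a derivative of male E14tg2a cells of the 129Ola strain that carries the allele Oct3/4IRES-BSD-pA/+. All were cultured on gelatin-coated dishes in GMEM with fetal calf serum and leukemia inhibitory factor. The labels give neither the number of knockout clones nor whether each library was grown as a culture of its own. The p-values therefore measure the spread between libraries, which may be technical.

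Basement membranes are thin sheets of extracellular matrix that underlie epithelia and endothelia. Laminin trimers, each made of an alpha, a beta and a gamma chain, form a cell-bound network, and heterotrimers of collagen IV, made of COL4A1 and COL4A2 chains in nearly every tissue, form another. Nidogens and perlecan bind to both. In the early mouse embryo these genes are expressed strongly by the endoderm that lays down Reichert's membrane, and embryonic stem cells themselves express laminin chains, with laminin-111 (Lama1, Lamb1, Lamc1) and laminin-511 (Lama5, Lamb1, Lamc1) as the main forms. In bulk RNA, fewer cells of a type and less RNA per cell cannot be told apart.

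The promoter windows of Col4a1 and Col4a2 are printed because both genes fell in both knockouts and share a locus, and that of Sparc because it is the third gene that fell in both. The windows hold 300 bases, 250 before and 50 after the annotated start, and come from RefSeq (GRCm38.p6, the assembly also called mm10), which had a window for 7 of the 10 genes. Capitals in the first pair mark the 78 bases that the Col4a1 and Col4a2 windows share, read on opposite strands, and capitals in the Sparc window mark the bases from its annotated start on.
Col4a1: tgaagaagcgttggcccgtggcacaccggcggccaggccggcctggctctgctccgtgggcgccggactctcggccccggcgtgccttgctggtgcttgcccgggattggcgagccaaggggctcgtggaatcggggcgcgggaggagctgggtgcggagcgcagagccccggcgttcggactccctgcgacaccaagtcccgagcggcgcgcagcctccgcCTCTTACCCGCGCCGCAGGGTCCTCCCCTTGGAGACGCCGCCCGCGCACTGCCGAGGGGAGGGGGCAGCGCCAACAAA
Col4a2: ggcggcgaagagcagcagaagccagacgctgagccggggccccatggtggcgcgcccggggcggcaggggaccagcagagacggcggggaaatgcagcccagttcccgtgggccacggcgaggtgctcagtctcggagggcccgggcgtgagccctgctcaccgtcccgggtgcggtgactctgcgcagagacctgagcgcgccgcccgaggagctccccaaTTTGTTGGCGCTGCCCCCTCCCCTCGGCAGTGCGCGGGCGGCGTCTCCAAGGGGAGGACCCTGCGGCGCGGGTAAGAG
Sparc: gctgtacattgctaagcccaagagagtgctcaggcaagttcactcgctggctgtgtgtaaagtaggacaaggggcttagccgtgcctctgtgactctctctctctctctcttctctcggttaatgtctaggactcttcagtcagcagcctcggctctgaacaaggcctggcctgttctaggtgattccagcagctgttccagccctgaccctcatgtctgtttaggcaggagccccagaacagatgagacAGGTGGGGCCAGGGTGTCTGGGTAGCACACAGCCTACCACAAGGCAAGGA

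The Col4a1 window lies at chr8:11312777-11313076 on the minus strand and the Col4a2 window at chr8:11312555-11312854 on the plus strand. The annotated starts used for these windows are 21 bases apart, so the genes run head to head. The annotated gene body of Col4a1 reaches further, to 11312889 against the window's start at 11312826, and the 2 gene bodies overlap by 85 bases. Whether the authors' counting used the strand is not given in the sources used here. The expected counts of Col4a1 and Col4a2 were whole in all 9 libraries, so no division of reads between them was seen. The Sparc window lies at chr11:55420031-55420330 on the minus strand. Both collagen windows are rich in G and C, at 74% and 73.7%, against 55.3% in the Sparc window and a median of 52.7% over 32851 windows. The GC box GGGCGG, searched on both strands, is present in 6 of the 7 windows (Col4a1, Col4a2, Lama5, Lamb1, Nid1 and Hspg2, but not Sparc) and in 35.7% of all windows. The CCAAT box is present in 4 of 7 (Col4a1, Col4a2, Lamb1 and Nid1) and in 37.4% of all windows, and no CCAAT match overlapped a GC box in these 7 windows. The TEAD motif GGAATG was found in the Nid1 window only, against 14.7% of all windows. Neither TATAAA (13.6% of all windows) nor the AP-1 motif TGANTCA (7.81%) was found in any of the 7. These matches describe letters in a window and do not show binding.

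Libraries held between 16599004 and 22044820 expected counts, and each basement membrane gene had between 570 and 10320 expected counts in every library, so all 10 passed the filter on low counts that left 14300 genes for testing. Levels are given as TPM, which corrects for transcript length and library size and can be compared between genes. Fold changes come from rounded expected counts and are not corrected for length. Dividing by a gene's length, as TPM does, does not remove a trend with length that differs between libraries (below). A gene was called when edgeR's quasi-likelihood test gave a Benjamini-Hochberg adjusted p under 0.05 over all 14300 genes. The mean level of Zfp352, the targeted gene, was 1.86 TPM in Parental cells, against 0.293 in Zfp352-KO cells and 0.0733 in Zfp352/Zfp353-DKO cells, a log2 fold change from Parental of -2.65 ± 0.32 (SE, edgeR, adjusted p = 6.1e-05) and -4.64 ± 0.42 (adjusted p = 8e-07). Zfp353 was not analysed here. The pluripotency genes Pou5f1, Nanog, Sox2, Esrrb, Zfp42, Klf4 and Tfcp2l1 summed to between 3313 and 3491 TPM in every library.

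The 10 genes spanned a wide range of levels. In Parental cells Sparc was highest at 153.5 ± 1.72 TPM (SD, n = 3), followed by Nid2 at 111 ± 6.79 and Lamc1 at 98.02 ± 4.32. A middle group held Lama5 at 39.42 ± 4.13, Hspg2 at 38.53 ± 6.29, Nid1 at 34.27 ± 1.49, Lamb1 at 29.59 ± 0.756 and Col4a1 at 22.83 ± 2.8 TPM. Col4a2 at 13.17 ± 1.6 and Lama1 at 12.92 ± 1.03 TPM were lowest. Of the neighbours in this order, Lama5 and Hspg2, Hspg2 and Nid1, and Col4a2 and Lama1 overlapped in their ranges. The gamma chain Lamc1, the partner of every laminin alpha chain measured here, was thus several times higher than the beta chain Lamb1, and Lama5 was higher than Lama1 in every library. In Zfp352-KO cells Nid2 (129.6 ± 6.04 TPM) and Sparc (127.3 ± 4.97) overlapped at the top, and in Zfp352/Zfp353-DKO cells Nid2 (131.6 ± 8.12) stood above Sparc (114.9 ± 2.71) with no overlap. At the lower end Lama1 and Col4a1 overlapped in Zfp352/Zfp353-DKO cells, at 17.15 ± 2.26 and 16.66 ± 1.38 TPM, while in Parental cells every Col4a1 value was above every Lama1 value.

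**Figure D1:**
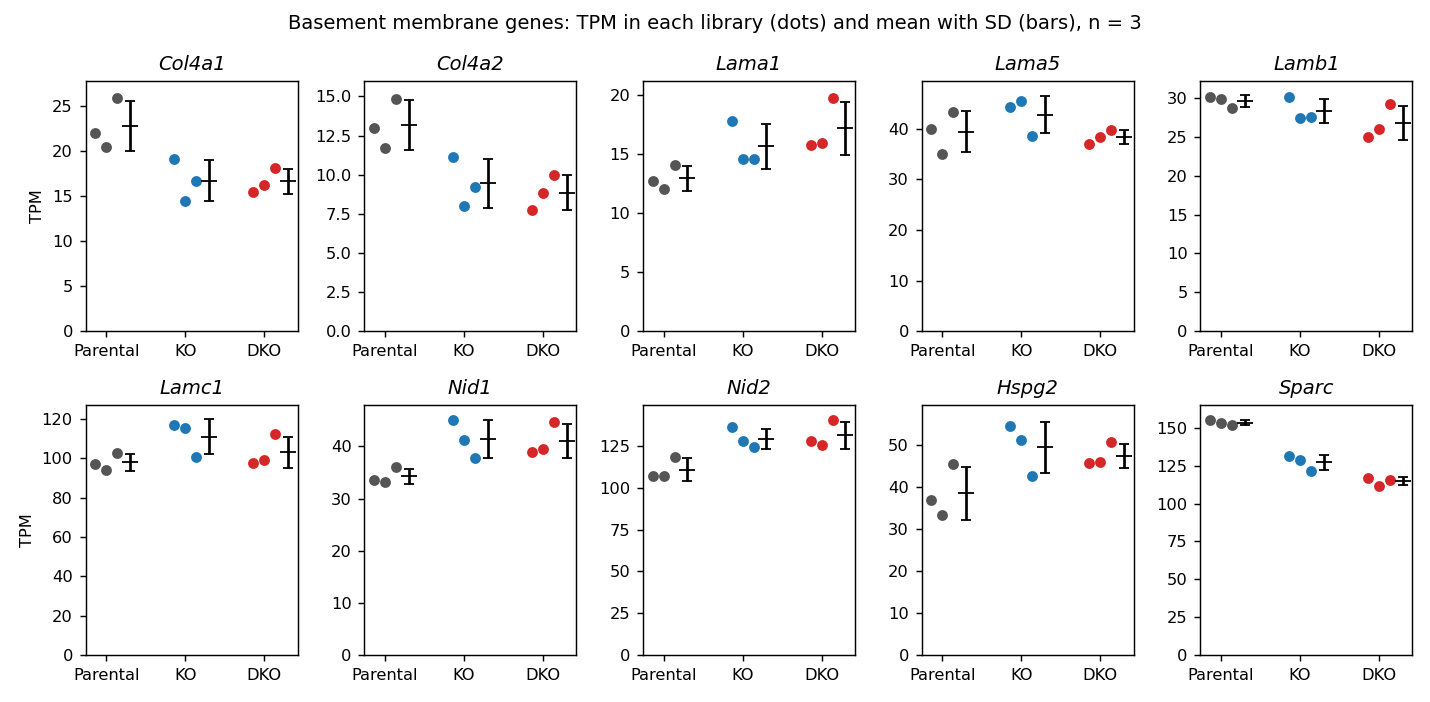
TPM (vertical axes, from 0, a separate scale for each gene) of the 10 basement membrane genes in each of the 9 libraries, by genotype, with KO for Zfp352-KO and DKO for Zfp352/Zfp353-DKO; dots are libraries and bars the mean with its SD (n = 3). Col4a1, Col4a2 and Sparc were lower in every knockout library than in every Parental library, and Nid1, Nid2 and Lama1 were higher in every knockout library. The share of all genes that separate in this way was not counted.

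Deletion of Zfp352 was accompanied by changes of both signs among the basement membrane genes. Against Parental cells, 3 of the 10 genes fell in Zfp352-KO cells (Col4a1, Col4a2 and Sparc) and 3 rose (Nid1, Nid2 and Hspg2), where 3.64% of all tested genes were called lower and 3.43% higher. In Zfp352/Zfp353-DKO cells 4 fell (Col4a1, Col4a2, Sparc and Lamb1) and 4 rose (Nid1, Nid2, Hspg2 and Lama1), where 4.82% of all tested genes were called lower and 3.65% higher. The 10 genes were chosen with earlier results of these data known, so the shares over all genes do not test the set. Both comparisons use the same Parental libraries, so they are not independent of each other. The changes were small, with a median size of 0.22 and 0.24 on the log2 scale. The median of the signed changes was 0.10 and -0.02, against -0.01 and 0.00 over all tested genes. The medians over all genes are not matched for transcript length, with which fold changes moved (below). The 10 genes together summed to 547.9, 530 and 581.8 TPM in the Parental libraries, to 606.5, 574.6 and 533.8 TPM in the Zfp352-KO libraries and to 528.6, 527.7 and 581.2 TPM in the Zfp352/Zfp353-DKO libraries. These ranges overlap, so the summed level did not separate the genotypes.

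The counts of called genes depended on single libraries. The calls lost were rises in Zfp352-KO cells, and rises and the fall of Lamb1 in Zfp352/Zfp353-DKO cells. For Zfp352-KO against Parental, leaving out Parental 1, Parental 2, Zfp352-KO 1 or Zfp352-KO 2 left 3 calls, all of them lower. For Zfp352/Zfp353-DKO against Parental, 4 calls were left without Parental 1 and 5 without Parental 2, 3 of them lower in both cases.

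**Figure D2:**
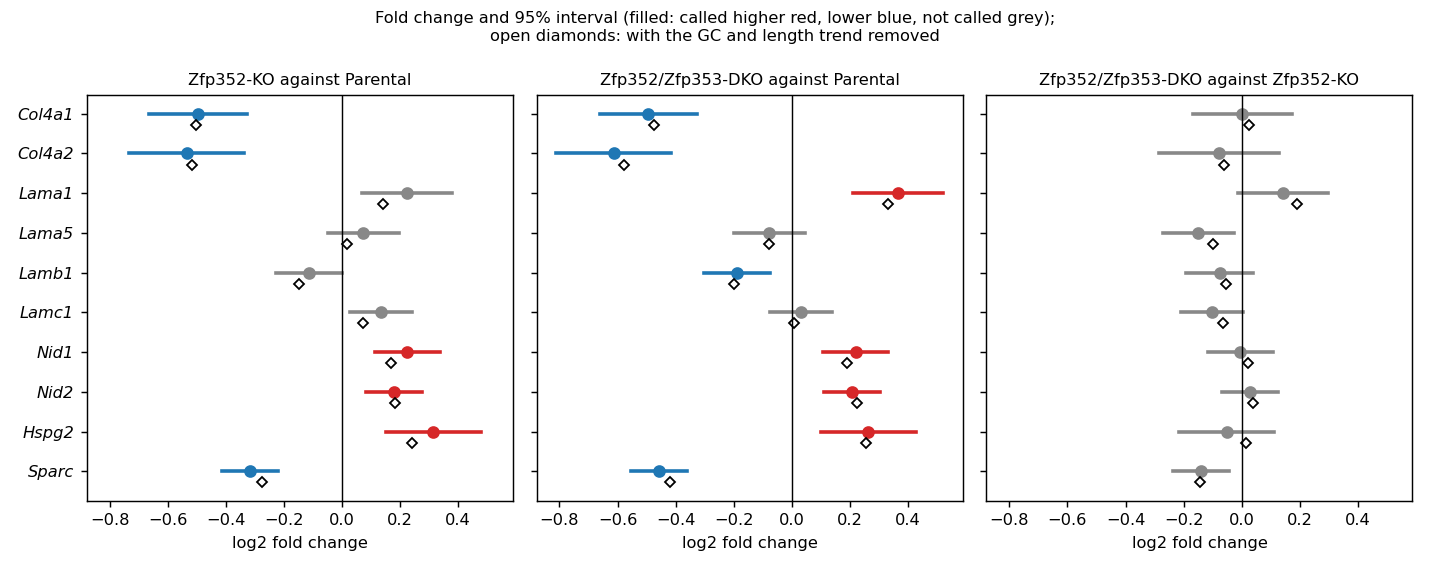
Log2 fold change (horizontal axis) of each gene (vertical axis) in the 3 comparisons, with its 95% interval; blue marks genes called lower, red genes called higher and grey genes not called, and open diamonds give the value after the trend with GC content and transcript length was removed. The intervals of Col4a1, Col4a2 and Sparc lie wholly below 0 against Parental in both knockouts, and no gene is called between the knockouts.

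Collagen IV is the network-forming collagen of basement membranes, and its chains showed the deepest falls of the 10 genes. Col4a1 (chr8:11198423-11312889) was at 22.07, 20.49 and 25.93 TPM in the Parental libraries, at 19.11, 14.47 and 16.67 TPM in the Zfp352-KO libraries and at 15.52, 16.27 and 18.2 TPM in the Zfp352/Zfp353-DKO libraries. Col4a2 (chr8:11312805-11449287) was at 12.96, 11.69 and 14.87 TPM in Parental, at 11.11, 7.98 and 9.23 TPM in Zfp352-KO and at 7.76, 8.84 and 9.99 TPM in Zfp352/Zfp353-DKO cells. For both genes every knockout library was below every Parental library, and the ranges of the knockouts overlapped each other. In Zfp352-KO cells Col4a1 fell by 0.50 ± 0.08 on the log2 scale (SE, edgeR quasi-likelihood, adjusted p = 0.0011), to 0.709 of its Parental level, and Col4a2 fell by 0.53 ± 0.09 (adjusted p = 0.0025), to 0.690. In Zfp352/Zfp353-DKO cells Col4a1 fell by 0.49 ± 0.08 (edgeR, adjusted p = 0.00061), to 0.710, and Col4a2 fell by 0.61 ± 0.09 (adjusted p = 0.00041), to 0.654. The falls kept their calls with each library left out in turn. On log2(TPM + 1) with limma the falls in Zfp352-KO cells were not called (adjusted p = 0.054 for Col4a1 and 0.076 for Col4a2).

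Sparc (chr11:55394159-55420080), which encodes a secreted protein that binds collagen IV, was the most abundant of the 10 in Parental cells. It was at 155.33, 153.11 and 151.95 TPM in Parental, at 131.27, 128.86 and 121.72 TPM in Zfp352-KO and at 117.08, 111.87 and 115.74 TPM in Zfp352/Zfp353-DKO libraries. The 3 genotypes did not overlap, with Parental highest and Zfp352/Zfp353-DKO lowest. Sparc fell by 0.32 ± 0.05 on the log2 scale in Zfp352-KO cells (edgeR, adjusted p = 0.00038), to 0.803 of its Parental level, and by 0.46 ± 0.05 when Zfp353 was deleted too (adjusted p = 2.5e-06), to 0.728. It kept its call in all 22 alternative settings in both comparisons.

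Laminin alpha chains bind the cell's receptors, and the alpha chains measured here did not move together. Lama1 (chr17:67697127-67822645), the alpha chain of laminin-111, was at 12.68, 12.04 and 14.05 TPM in Parental, at 17.79, 14.52 and 14.54 TPM in Zfp352-KO and at 15.74, 15.95 and 19.75 TPM in Zfp352/Zfp353-DKO libraries. Each knockout library was above every Parental library, though 2 of the 3 Zfp352-KO libraries were above the highest Parental one only narrowly. Lama1 rose by 0.37 ± 0.07 on the log2 scale in Zfp352/Zfp353-DKO cells (edgeR, adjusted p = 0.0041), or 1.29-fold. This call held with each library left out in turn and was lost with limma on log2(TPM + 1) (adjusted p = 0.06). In Zfp352-KO cells its log2 fold change of 0.22 ± 0.07 did not pass the threshold (edgeR, adjusted p = 0.073). It passed in 3 of 22 alternatives. These were without Zfp352/Zfp353-DKO 3 in the shared estimate of the spread (edgeR, adjusted p = 0.023), with only the 6 libraries compared (0.033) and with no filter on low counts (0.016).

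Lama5 (chr2:180176373-180225904), the alpha chain of laminin-511, was at 39.93, 35.06 and 43.27 TPM in Parental, at 44.28, 45.48 and 38.58 TPM in Zfp352-KO and at 36.98, 38.4 and 39.72 TPM in Zfp352/Zfp353-DKO libraries. Both knockouts overlapped the Parental range. Its log2 fold change was 0.07 (95% interval -0.05 to 0.19, edgeR, adjusted p = 0.48) in Zfp352-KO and -0.08 (-0.20 to 0.04, adjusted p = 0.44) in Zfp352/Zfp353-DKO cells, so a change of the size seen for Lama1 in Zfp352/Zfp353-DKO cells lies outside both intervals.

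Lamb1 (chr12:31265146-31329644), the beta chain of both laminins, was at 30.14, 29.91 and 28.73 TPM in Parental, at 30.09, 27.36 and 27.49 TPM in Zfp352-KO and at 25.02, 26.03 and 29.23 TPM in Zfp352/Zfp353-DKO libraries. The TPM ranges overlapped in both comparisons. On counts Lamb1 fell by 0.19 ± 0.05 on the log2 scale in Zfp352/Zfp353-DKO cells (edgeR, adjusted p = 0.038), to 0.877, and its value in Zfp352-KO cells was -0.11 ± 0.05 (adjusted p = 0.21). The Zfp352/Zfp353-DKO call was lost without Parental 1 (adjusted p = 0.17), Parental 2 (0.17), Zfp352-KO 2 (0.063), Zfp352-KO 3 (0.05), Zfp352/Zfp353-DKO 1 (0.13) or Zfp352/Zfp353-DKO 2 (0.14), and with limma on TPM (adjusted p = 0.23).

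Lamc1 (chr1:153218922-153332786), the gamma chain of both laminins, was at 97.27, 94.12 and 102.67 TPM in Parental, at 117.07, 115.25 and 100.78 TPM in Zfp352-KO and at 97.8, 99.12 and 112.22 TPM in Zfp352/Zfp353-DKO libraries. All 3 genotypes overlapped. Its log2 fold change was 0.13 ± 0.05 in Zfp352-KO cells (edgeR, adjusted p = 0.11), against 0.03 ± 0.05 in Zfp352/Zfp353-DKO cells (adjusted p = 0.76). Without Zfp352-KO 3, the lowest library of that genotype, the first of these was called (adjusted p = 0.023).

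Nidogens are small bridging proteins that bind the laminin gamma chain and collagen IV. Nid1 (chr13:13437602-13512275) was at 33.55, 33.28 and 35.99 TPM in Parental, at 45.11, 41.32 and 37.74 TPM in Zfp352-KO and at 39.02, 39.43 and 44.7 TPM in Zfp352/Zfp353-DKO libraries. Nid2 (chr14:19751257-19811787) was at 107.08, 107.09 and 118.85 TPM in Parental, at 136.3, 128.06 and 124.53 TPM in Zfp352-KO and at 128.02, 125.93 and 140.93 TPM in Zfp352/Zfp353-DKO libraries. For both genes every knockout library was above every Parental library. Nid1 rose 1.17-fold in Zfp352-KO cells (log2 0.22 ± 0.05, edgeR, adjusted p = 0.019) and 1.16-fold in Zfp352/Zfp353-DKO cells (log2 0.22 ± 0.05, adjusted p = 0.016). Nid2 rose 1.13-fold in Zfp352-KO cells (log2 0.18 ± 0.05, edgeR, adjusted p = 0.028) and 1.15-fold in Zfp352/Zfp353-DKO cells (log2 0.21 ± 0.05, adjusted p = 0.0089). The expected counts of Nid2 were not whole in any of the 9 libraries, which shows that some of its reads were shared with another row, so its level is less certain than the others.

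The nidogen calls were lost when some single libraries were left out. In Zfp352-KO cells the Nid1 call was lost without Parental 1 (adjusted p = 0.13), Parental 2 (0.061), Zfp352-KO 1 (0.12) or Zfp352-KO 2 (0.061), and the Nid2 call without the same libraries (0.17, 0.083, 0.13 and 0.067). In Zfp352/Zfp353-DKO cells the Nid1 call was lost without Parental 1 (adjusted p = 0.1), Parental 2 (0.051) or Zfp352/Zfp353-DKO 3 (0.067), and the Nid2 call without Parental 1 (0.09). With limma on log2(TPM + 1), Nid1 was called in neither knockout (adjusted p = 0.074 and 0.07) and Nid2 was not called in Zfp352-KO cells (0.058).

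Hspg2 (chr4:137468751-137570630) encodes perlecan, a large proteoglycan that carries heparan sulfate and binds nidogen and collagen IV. It was at 36.9, 33.22 and 45.48 TPM in Parental, at 54.41, 51.3 and 42.51 TPM in Zfp352-KO and at 45.7, 45.84 and 50.77 TPM in Zfp352/Zfp353-DKO libraries. Parental 3 was above Zfp352-KO 3, so these genotypes overlapped, while the lowest Zfp352/Zfp353-DKO library was just above Parental 3. Hspg2 rose 1.24-fold in Zfp352-KO cells (log2 0.31 ± 0.08, edgeR, adjusted p = 0.023) and 1.20-fold in Zfp352/Zfp353-DKO cells (log2 0.26 ± 0.08, adjusted p = 0.044). The first call was lost without Parental 1 (adjusted p = 0.14), Parental 2 (0.11), Zfp352-KO 1 (0.12) or Zfp352-KO 2 (0.092). The other was lost without Parental 1 (0.2), Parental 2 (0.19), Zfp352-KO 2 (0.054), Zfp352/Zfp353-DKO 1 (0.061), Zfp352/Zfp353-DKO 2 (0.086) or Zfp352/Zfp353-DKO 3 (0.12), and DESeq2 called neither (adjusted p = 0.08 and 0.17).

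Fold changes moved with transcript length. All members except Sparc (2640 bases) are long, from 4884 bases for Nid2 to 14177 for Hspg2, and in these libraries the counts of long transcripts differed between samples. The Spearman correlation over genes between transcript length and a library's deviation from the mean of all libraries was -0.307, -0.402 and -0.0814 for Parental 1 to 3, 0.391, 0.189 and -0.0653 for Zfp352-KO 1 to 3, and -0.127, -0.0216 and 0.362 for Zfp352/Zfp353-DKO 1 to 3. Genes are not independent, so these values describe the libraries only. Genes of 9000 bases or more had a median log2 fold change of 0.20 for Zfp352-KO and 0.15 for Zfp352/Zfp353-DKO cells, those of 6000 to 9000 bases 0.12 and 0.10, and those under 1500 bases -0.10 and -0.08.

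Set against genes of like length, Lama1 (9518 bases) in Zfp352-KO cells lay near the median of the longest genes and Hspg2 above it, whereas Lama5 (11388 bases) lay below it in both knockouts. Col4a1 (6615 bases) and Col4a2 (6426 bases) lay well below the median of their length class. When the trend with GC content and length was removed in each library, Col4a1 was at -0.50 and Col4a2 at -0.52 in Zfp352-KO cells and at -0.48 and -0.58 in Zfp352/Zfp353-DKO cells. With the same correction Hspg2 was at 0.24 and 0.26 (edgeR, adjusted p = 0.00093 and 0.00022), Nid1 at 0.17 and 0.19 (0.0093 and 0.0017), and Nid2 at 0.18 and 0.22 (0.0018 and 9.9e-05). Lama1 was at 0.14 in Zfp352-KO cells (edgeR, adjusted p = 0.12) and at 0.33 in Zfp352/Zfp353-DKO cells (9.9e-05). The same numbers of genes were called with and without the correction, 6 and 8.

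**Figure D3:**
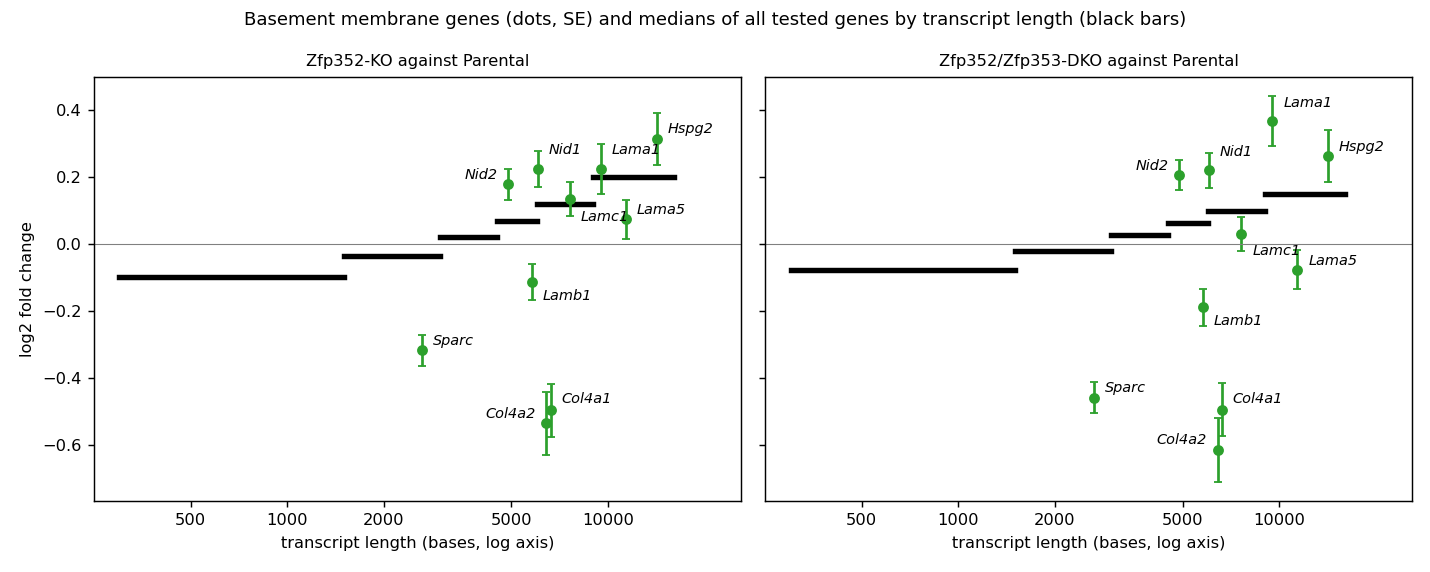
Log2 fold change against Parental (vertical axis) of the 10 basement membrane genes by transcript length (horizontal log axis, bases); dots are genes with their SE, and black bars are the medians of all tested genes in 6 length classes, the first and last of which are open-ended. The medians climb from -0.10 to 0.20 in Zfp352-KO and from -0.08 to 0.15 in Zfp352/Zfp353-DKO cells, and Col4a1 and Col4a2 lie below the median of their length class.

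Between the knockouts the basement membrane genes could not be told apart after correction. For Zfp352/Zfp353-DKO against Zfp352-KO, edgeR called 0 of the 10 genes, where 0.0140% of all tested genes were called higher and 0.0909% lower. At an unadjusted p under 0.05 there were 2, Lama5 and Sparc, and DESeq2 and limma also called 0. The share of all tested genes at that unadjusted threshold was not counted. Sparc was lower in each Zfp352/Zfp353-DKO library than in each Zfp352-KO library, with a log2 fold change of -0.14 (95% interval -0.24 to -0.04, edgeR, adjusted p = 0.49). Lama5 was at -0.15 (-0.27 to -0.03, edgeR, adjusted p = 0.64). The interval of Col4a1 ran from -0.17 to 0.17 and that of Col4a2 from -0.29 to 0.13, so a further fall as large as the one from Parental lies outside both. Lama1 was at 0.14 (-0.01 to 0.30, edgeR, adjusted p = 0.8).

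Partner chains were compared as ratios of TPM within a library, because collagen IV and laminin are assembled from several chains. Col4a2 was at 0.577 ± 0.00891 of the Col4a1 level in Parental cells (SD, n = 3), against 0.562 ± 0.0167 in Zfp352-KO cells and 0.531 ± 0.0268 in Zfp352/Zfp353-DKO cells. The Zfp352/Zfp353-DKO values of 0.500, 0.543 and 0.549 were below all others. Lama5 was at 3.05 ± 0.122 times the Lama1 level in Parental cells, 2.76 ± 0.334 times in Zfp352-KO cells and 2.26 ± 0.214 times in Zfp352/Zfp353-DKO cells, again with the last below all others. The ratio of Lamc1 to Lamb1 was 3.32 ± 0.227 in Parental cells, against 3.92 ± 0.275 with Zfp352 deleted and 3.85 ± 0.0517 with both genes deleted, and every knockout library exceeded every Parental library. This last ratio was chosen after its values were seen. Nid2 to Nid1 stood at 3.24 ± 0.0578, 3.14 ± 0.144 and 3.21 ± 0.0654, with overlapping ranges.

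The ratios were compared with an exact permutation test alone. With 3 libraries against 3, the smallest p that an exact two-sided permutation test allows is 0.10, which the 6 comparisons without overlap reached. After Benjamini-Hochberg adjustment over the 12 comparisons the exact permutation p of these 6 was 0.20.

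**Figure D4:**
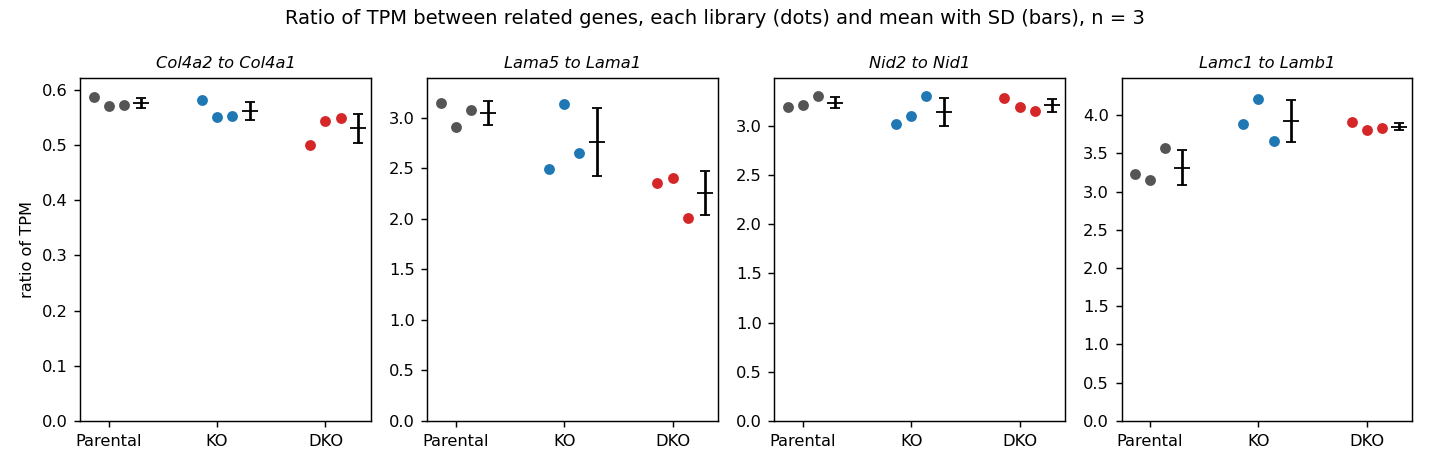
Ratio of TPM (vertical axes, from 0) between Col4a2 and Col4a1, Lama5 and Lama1, Nid2 and Nid1, and Lamc1 and Lamb1 in each library, by genotype (KO, Zfp352-KO; DKO, Zfp352/Zfp353-DKO); dots are libraries and bars the mean with its SD (n = 3). The ratio of Lama5 to Lama1 is lowest in Zfp352/Zfp353-DKO cells, and that of Nid2 to Nid1 overlaps between all genotypes.

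Col4a2 followed Col4a1 more closely than any other tested gene did. Over the 9 libraries, Pearson's r of log2 CPM, counts scaled to library size, between them was 0.987, which placed Col4a2 at rank 1 of all tested genes, and of their deviations from the genotype means it was 0.968. The 9 libraries share genotypes, culture and depth, so these values describe likeness only. The 5 genes outside the 10 that were most like Col4a1, of 14290, were Slc22a23 (r = 0.970), Slc44a2 (0.960), Dab2ip (0.955), Hbegf (0.950) and Sp5 (0.950). Their log2 fold changes in Zfp352-KO and Zfp352/Zfp353-DKO cells ran from -0.09 and -0.09 for Dab2ip to -1.54 and -1.79 for Sp5, so a like pattern over libraries did not mean a change of like size.

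The likeness of the other genes differed between and within genotypes. Among Nid1, Nid2, Hspg2 and Lama1, r over the 9 libraries was 0.767 to 0.947, and within genotypes it was 0.611 to 0.860. Col4a1 and Sparc were alike over the 9 libraries (0.791), but their deviations within genotypes ran in opposite directions (-0.598). Col4a1 and Lama1 showed the reverse, with -0.474 over the 9 libraries and 0.825 within genotypes. Log2 CPM is not corrected for transcript length, and libraries of the same genotype differed in their trend with length. The part of length in the values within genotypes was not tested. Between Col4a1, Col4a2 and Sparc on one side and Nid1, Nid2, Hspg2 and Lama1 on the other, r ran from -0.918 to -0.474 over the 9 libraries, which restates their changes by genotype, and from -0.424 to 0.864 within genotypes.

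**Figure D5:**
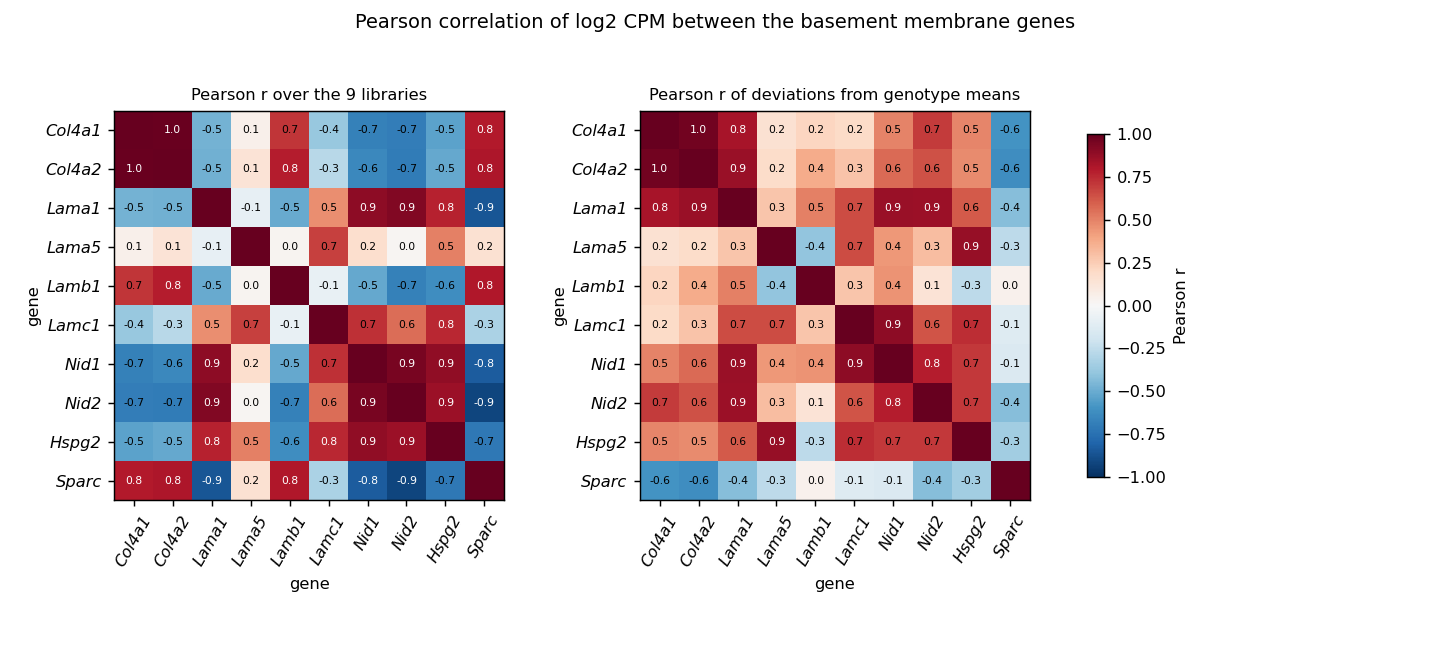
Pearson's r of log2 CPM for each pair of the 10 genes (both axes), over the 9 libraries (left) and for deviations from the genotype means (right); the colour scale runs from -1 to 1. Col4a1 and Col4a2 are alike in both panels (0.987 and 0.968), while Col4a1 and Lama1 have opposite signs in the 2 panels (-0.474 and 0.825).

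The calls among other components of the basement membrane were of both signs. Of a list of 25, 17 passed the filter. In Zfp352-KO cells 1 rose and 2 fell (median log2 fold change 0.01), where 3.43% of all tested genes were called higher and 3.64% lower. In Zfp352/Zfp353-DKO cells 1 rose and 3 fell (median -0.14), where the shares over all tested genes were 3.65% and 4.82%. The lists here and below were chosen with earlier results of these data known, so such shares do not test them. Tinagl1, a secreted basement membrane glycoprotein, was at -0.44 ± 0.12 on the log2 scale (edgeR, adjusted p = 0.04) in Zfp352-KO cells and -0.69 ± 0.13 (0.0022) with both genes deleted, and the X-linked collagen chain Col4a5, from a Parental level of 0.64 TPM, was at -0.62 ± 0.24 (0.12) and -1.08 ± 0.26 (0.013), with no call between the knockouts (0.86). Frem2, a Fraser complex protein, rose by 0.28 ± 0.06 (edgeR, adjusted p = 0.014) and 0.27 ± 0.06 (0.012). The most abundant of the list, collagen XVIII (Col18a1, 104.7 TPM in Parental cells) and agrin (Agrn, 76.02 TPM), were not called. The Tinagl1 call in Zfp352-KO cells was lost without Parental 1, Parental 2, Zfp352-KO 1, Zfp352-KO 2 or Zfp352/Zfp353-DKO 2 (adjusted p up to 0.17), and the Col4a5 call without Parental 1 or Zfp352/Zfp353-DKO 2 (up to 0.074). The Frem2 call was lost in Zfp352-KO cells without Parental 1, Zfp352-KO 1 or Zfp352-KO 2 (up to 0.11) or with the length trend removed (0.14), and in Zfp352/Zfp353-DKO cells without Parental 1 (0.097).

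Receptors for laminin and collagen IV were lower where they were called, with 1 exception. Of 11 listed receptors 10 were tested. In Zfp352-KO cells 3 fell and 1 rose (median log2 fold change -0.13), against 3.64% lower and 3.43% higher over all tested genes. In Zfp352/Zfp353-DKO cells 4 fell (median -0.16), against 4.82% lower over all tested genes. Itga3, the alpha chain of the laminin-binding integrin alpha-3 beta-1, had means of 46.17 TPM in Parental, 37.41 TPM in Zfp352-KO and 31.13 TPM in Zfp352/Zfp353-DKO cells and fell by 0.35 ± 0.05 (edgeR, adjusted p = 0.00062) and 0.61 ± 0.05 (5.3e-07) on the log2 scale. Bcam, a receptor for laminin alpha-5, fell by 0.28 ± 0.06 (edgeR, adjusted p = 0.0067) and 0.39 ± 0.06 (0.00025). The collagen-binding integrin chain Itga1, at 1.03 TPM in Parental cells, was at -0.68 ± 0.20 (edgeR, adjusted p = 0.047) and -0.72 ± 0.20 (0.034). The common beta chain Itgb1 was called in Zfp352/Zfp353-DKO cells at -0.17 ± 0.05 (edgeR, adjusted p = 0.037), and the collagen receptor Ddr2 in Zfp352-KO cells at 0.25 ± 0.06 (0.027). Dystroglycan (Dag1) and Itga6, which also bind laminin, were not called.

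Of these receptor calls, those of Itga3 and Bcam held with each library left out in turn, though Bcam in Zfp352-KO cells was not called with the length trend removed (adjusted p = 0.1). The Itga1 call in Zfp352-KO cells was lost without any of Parental 1, 2 and 3, Zfp352-KO 1 and 2 and Zfp352/Zfp353-DKO 2 (adjusted p up to 0.21), and in Zfp352/Zfp353-DKO cells without Parental 1, Parental 3, Zfp352/Zfp353-DKO 1 or Zfp352/Zfp353-DKO 2 (up to 0.16). The Itgb1 call was lost without Parental 1, Parental 2, Zfp352-KO 2, Zfp352/Zfp353-DKO 1 or Zfp352/Zfp353-DKO 2 (up to 0.17). The Ddr2 call was lost without Parental 1, Parental 2, Zfp352-KO 1 or Zfp352-KO 2 (up to 0.11) and with the length trend removed (0.32).

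Among 12 proteins that fold, modify, export or crosslink collagen IV, 11 were tested. In Zfp352-KO cells 2 fell and 1 rose (median -0.08), against 3.64% lower and 3.43% higher over all tested genes. In Zfp352/Zfp353-DKO cells 2 fell (median -0.06), against 4.82% lower over all tested genes. Serpinh1, the collagen chaperone of the endoplasmic reticulum, had means of 71.14, 57.41 and 52.03 TPM and fell by 0.35 ± 0.06 (edgeR, adjusted p = 0.0011) and 0.49 ± 0.06 (1.4e-05) on the log2 scale in the respective knockouts. Its calls held with each library left out in turn. Pxdn, the peroxidase that crosslinks collagen IV, fell by 0.40 ± 0.08 in Zfp352/Zfp353-DKO cells (edgeR, adjusted p = 0.0025). The lysyl oxidase Loxl2 was at -0.49 ± 0.13 (edgeR, adjusted p = 0.03) and the export receptor Mia3 at 0.19 ± 0.05 (0.022) in Zfp352-KO cells. The Loxl2 call was lost without Parental 1, 2 or 3 or Zfp352-KO 1 or 2 (adjusted p up to 0.15), and the Mia3 call without Parental 1 or 2 or Zfp352-KO 1 or 2 (up to 0.13) and with the length trend removed (0.32). The prolyl and lysyl hydroxylases P4ha1, P4ha2, P4hb, Plod1, Plod2 and Plod3 were not called.

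Markers of other cell types that make matrix moved with the falls in part. Over all tested genes 3.64% were called lower in Zfp352-KO cells and 4.82% in Zfp352/Zfp353-DKO cells. Of 16 fibroblast-type markers 12 were tested, and 6 fell in Zfp352-KO cells and 7 in Zfp352/Zfp353-DKO cells. Their summed level was 100.6 to 113.3 TPM in Parental, 63.69 to 74.12 in Zfp352-KO and 48.89 to 55.44 in Zfp352/Zfp353-DKO libraries. The most abundant of them was the actin-binding protein Tagln, at means of 51.78, 31.47 and 22.42 TPM. It is a large part of the summed level, whose means were 105, 67.75 and 52.03 TPM. Col1a1, a chain of fibrillar collagen I, fell by 1.15 ± 0.09 (edgeR, adjusted p = 4.8e-07) and 1.66 ± 0.09 (2e-09) on the log2 scale, from 11.94 TPM in Parental cells. Thy1 was called lower in Zfp352-KO cells (edgeR, adjusted p = 0.014) but not in Zfp352/Zfp353-DKO cells (0.62), with means of 6.37, 4.30 and 6.06 TPM. Col5a2, Twist1, Pdgfrb and Postn were called in neither knockout, with Twist1 at means of 1.58, 1.62 and 1.92 TPM. In Parental cells Col3a1 was at 1.26, Pdgfrb at 1.13 and Twist2 at 1.11 TPM. Lum and Fap were at mean levels of 0.0167 TPM or less and Dcn at 0.173 TPM or less in every genotype. Of 12 trophectoderm markers 11 were tested and 5 fell in both knockouts (Krt8, Krt18, Krt19, Hand1 and Cdx2). The other 6 tested (Eomes, Gata2, Gata3, Tfap2c, Krt7 and Ascl2) were not called, with Tfap2c at means of 62.11, 64.2 and 64.64 TPM. The list summed to 407.7 to 464.2, 299.8 to 304.6 and 267.5 to 279.5 TPM. Its most abundant genes in Parental cells were keratins of simple epithelia, with means of 139, 83.37 and 71.6 TPM for Krt8, 120.1, 83.81 and 69.84 for Krt18, and 85.22, 44.91 and 42.03 for Krt19. The Cdx2 call in Zfp352-KO cells was lost without Parental 1 (adjusted p = 0.054). The part of either list in the falls of Col4a1, Col4a2 and Sparc was not tested.

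Markers of primitive and parietal endoderm, the lineage that lays down Reichert's membrane, were at low levels. Of 13 markers 10 were tested. In Zfp352-KO cells edgeR, DESeq2 and limma called 0, with 1 at an unadjusted edgeR p under 0.05 (Hnf4a). In Zfp352/Zfp353-DKO cells edgeR called only Hnf4a (log2 0.59 ± 0.16, adjusted p = 0.024), against 3.65% higher over all tested genes. That call was lost without Parental 1, Parental 2, Zfp352/Zfp353-DKO 2 or Zfp352/Zfp353-DKO 3 (adjusted p up to 0.14). The list summed to 8.81 to 11.47 TPM in Parental, 8.44 to 11.27 in Zfp352-KO and 9.55 to 12.43 in Zfp352/Zfp353-DKO libraries, ranges that overlap. Gata4 was at a mean of 1.53 TPM and Gata6 at 0.56 TPM in Parental cells, Sox17 at 0.28 TPM, and Ttr and Afp at 0.03 TPM or less. The highest of the list in Parental cells was Dab2 at 2.58 TPM, and Hnf4a and Amn were at 1.46 and 1.23 TPM. Of 6 endothelial markers 4 were tested, and edgeR, DESeq2 and limma called 0 in either knockout against Parental (1 at an unadjusted p under 0.05 in each, Tek). They summed to between 6.4 and 8.47 TPM in all libraries.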

How the data were processed

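Total RNA of 9 EB5 libraries was made into stranded mRNA libraries (TruSeq) and sequenced single-end on a NextSeq 500, per the labels' protocols. Per the submitters' processing notes, the authors used RSEM 1.3.3, STAR 2.7.8a and Trim Galore 0.6.6 with mm10. For the annotation release and the strand setting, nothing is given in the sources used here. Per the file headers, the deposited tables hold an expected count per gene, which need not be whole (9.27% of values were not) because shared reads are divided, and the authors' TPM and FPKM, both normalized for length and depth. FPKM was not used.

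Expected counts were rounded, then tested two-sided in edgeR 4.0.16 (R 4.3.3) with filterByExpr, TMM factors (0.992 to 1.01), glmQLFit and glmQLFTest. One design by genotype held all 9 libraries, with no block and 6 residual degrees of freedom. The common biological coefficient of variation was 4.95%. SEs come from the quasi-likelihood F statistic. The script was tested on simulated counts that held no trend with length, so that test does not bear on the trend described above. Alternatives were DESeq2 1.42.0, limma 3.58.1 on log2(TPM + 1) and log2(TPM + 0.1), other scalings and filters, only the 6 libraries compared, a GC and length correction (local regression, span 0.3) and each library left out. Log2 CPM used a prior count of 2. No pairing of libraries by replicate number was seen, though it was not excluded (sensitivity section). The genes named are the 10 members, list genes called in any comparison with up to 4 abundant others per list, and the 5 genes most like Col4a1. The members and all gene lists were chosen with earlier results of these data known. Names and promoters come from RefSeq (GRCm38.p6). The values of 1 gene counted among the other basement membrane components are not reported here.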

Additional observations from a re-analysis of the deposited data

How the results depend on the processing

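Col4a1, Col4a2 and Sparc kept their direction and call against Parental in all 22 alternatives, except Col4a1 and Col4a2 in Zfp352-KO cells with limma (both pseudocounts). Of the genes called (6 for Zfp352-KO and 8 for Zfp352/Zfp353-DKO against Parental), limma on log2(TPM + 1) or log2(TPM + 0.1) called 1 and 4, and an adjusted p under 0.01 left 3 and 5. Leaving out single libraries gave 3 to 7 and 4 to 8, and 0 throughout between the knockouts. Over all genes, where the fit calls 1010, 1211 and 15, leaving out single libraries gave 210 to 1552, 449 to 1337 and 3 to 21 calls, lowest without Parental 1 in the first pair and without Zfp352/Zfp353-DKO 1 in the last. The other settings gave 257 to 1480, 467 to 1604 and 1 to 66; the cause was not tested. For the lists, limma on log2(TPM + 1) called 0 and 2 other basement membrane components (edgeR 3 and 4), 2 and 2 receptors (4 and 4), and 1 and 1 folding genes (3 and 2).

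Reversals of sign touched uncalled values near 0. Between the knockouts Col4a1 was at 0 with DESeq2's size factors, -0.0062 with upper quartile factors, -0.0019 with DESeq2, -0.0017 and -0.0015 with limma at pseudocounts of 1 and 0.1, and -6e-04 with no filter. Nid1 was at 0.0014 with library totals, 0.0224 with the trend removed and 0.0228 with the trend and block, and Hspg2 at 0.0155 and 0.0159 with the last settings. Leaving out single libraries between the knockouts gave -0.0962 to 0.0846 for Col4a1, -0.1902 to 0.0295 for Col4a2, -0.0536 to 0.0426 for Nid1, -6e-04 to 0.0499 for Nid2 and -0.1359 to 0.0061 for Hspg2, and -0.0106 to 0.0581 for Lamc1 in Zfp352/Zfp353-DKO cells against Parental.

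No pairing of libraries by replicate number was seen. Deviations of same-numbered libraries correlated between -0.0767 and 0.106, over 0.1 in 1 of 9 pairs. A library correlated best with its own number in 4 of 9, which does not exclude a pairing. A replicate block called 5 and 6 of the 10 genes, and the block with the trend removed 6 and 8. Ratios from expected counts in place of TPM moved 11 of 12 values by construction, since counts are not scaled to length.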

Other observations

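Matrix proteases and their inhibitors were not among the components described above. Of 12 listed, 11 were tested, and 3 fell in each knockout against Parental, with a median log2 fold change of -0.28 for Zfp352-KO and -0.27 for Zfp352/Zfp353-DKO cells. Plat, the tissue plasminogen activator, had means of 2.39 TPM in Parental, 1.47 TPM in Zfp352-KO and 1.21 TPM in Zfp352/Zfp353-DKO cells and was at -0.75 ± 0.18 (edgeR, adjusted p = 0.021) and -1.04 ± 0.19 (0.0019) on the log2 scale. Timp2, an inhibitor of matrix metalloproteinases, had means of 6.20, 4.61 and 4.03 TPM and was at -0.49 ± 0.12 (edgeR, adjusted p = 0.023) and -0.67 ± 0.13 (0.0023). Timp3, another inhibitor, was called in Zfp352-KO cells at -0.46 ± 0.13 (edgeR, adjusted p = 0.042), and the gelatinase Mmp2, which degrades collagen IV, in Zfp352/Zfp353-DKO cells at -0.23 ± 0.07 (0.046). The calls of Plat and Timp2 in Zfp352/Zfp353-DKO cells held with each library left out in turn. In Zfp352-KO cells Plat was not called without Parental 1, Parental 2, Zfp352-KO 1 or Zfp352-KO 3 (adjusted p up to 0.1), nor Timp2 without Parental 1, Parental 2, Zfp352-KO 2 or Zfp352-KO 3 (up to 0.16), nor Timp3 without any of Parental 1, 2 and 3, Zfp352-KO 1 and 2 and Zfp352/Zfp353-DKO 2 (up to 0.15). The Mmp2 call held only when the library left out was Zfp352-KO 1 (adjusted p up to 0.18 without any of the others).

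Of the 7 pluripotency markers, all tested, Tfcp2l1 rose by 0.37 ± 0.06 on the log2 scale in both knockouts (edgeR, adjusted p = 0.00081 and 0.00042), and Sox2 rose by 0.19 ± 0.04 in Zfp352/Zfp353-DKO cells (0.011). With the GC and length trend removed, 4 of the 7 were called higher in each knockout, against 1 and 2 without that correction. Between the knockouts 3 fibroblast-type markers were called lower in Zfp352/Zfp353-DKO cells (Col1a2, Acta2 and Tagln, at -0.62, -0.56 and -0.49, edgeR, adjusted p = 0.015, 0.034 and 0.015). Limma called 0 of the list. The Col1a2 call was lost without Zfp352-KO 3, Zfp352/Zfp353-DKO 1 or Zfp352/Zfp353-DKO 2 (adjusted p up to 0.12), the Tagln call without these or Zfp352-KO 2 (up to 0.12), and the Acta2 call without any library but Parental 3 and Zfp352-KO 2 (up to 0.22).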
